A study of Mus musculus with 2 samples.

Results

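The genes described here are 10 members of the heterochronic and stemness circuit, Lin28a, Lin28b, Trim71, Hmga1, Hmga2, Msi1, Msi2, Igf2bp1, Igf2bp2 and Igf2bp3, taken by symbol from the 24411 genes counted in each library. They were read in 2 libraries of mouse embryos, for which no allele or treatment is stated, 1 from the subventricular zone (SVZ) and 1 from the cortex of the mouse brain at embryonic day 16.5. Each area was cut from a fresh frozen, stained section with a laser under the microscope (laser capture microdissection, LCM), and the study used these libraries as a benchmark for its own light-directed barcoding of the same areas. The SVZ is the germinal layer beside the lateral ventricle in which neural progenitors divide, and the cortex is where the neurons born there settle. The number of embryos or sections behind each library, and the strain and sex of the embryos, are not stated in the labels or methods. A library cut from an area holds every cell type in it, blood vessels and microglia included.

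Heterochronic genes were found in the nematode, where they set the order in which cell fates follow each other. In mammals the RNA-binding proteins LIN28A and LIN28B block the maturation of the let-7 microRNAs, and let-7 in turn binds sites in the 3′ untranslated region (3′ UTR) of Lin28, Hmga2, Igf2bp and Trim71 mRNAs and lowers their output. HMGA1 and HMGA2 are chromatin proteins that bind AT-rich DNA and are known for supporting the self-renewal of young neural stem cells, IGF2BP1 to IGF2BP3 stabilize and transport mRNAs, TRIM71 is a ubiquitin ligase and mRNA repressor of early embryos, and the Musashi proteins MSI1 and MSI2 are translational regulators used as marks of neural stem and progenitor cells.

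The let-7 family is shown first, since its seed links most of the 10 genes. The mature sequences are those of RefSeq (GRCm38.p6), written 5′ to 3′ with the seed, bases 2 to 8, in capitals. The let-7 members printed and miR-98 share 1 seed. miR-125b and miR-9 are shown because they are the other microRNAs whose matches were counted, and their seeds differ from it.
let-7a-5p: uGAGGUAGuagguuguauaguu
let-7c-5p: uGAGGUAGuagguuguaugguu
let-7d-5p: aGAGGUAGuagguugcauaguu
let-7i-5p: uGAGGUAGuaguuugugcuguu
miR-98-5p: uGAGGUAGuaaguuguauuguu
miR-125b-5p: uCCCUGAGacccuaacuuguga
miR-9-5p: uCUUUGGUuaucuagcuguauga

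The DNA letters that pair with the let-7 seed are CTACCTC, searched on the transcript strand alone in the longest annotated 3′ UTR of each gene (GENCODE M21). This match occurred in 8 of the 10 genes and in 9.02% of all 21020 3′ UTRs, whose median length was 961 bases. Lin28, Hmga2, Igf2bp and Trim71 mRNAs are known let-7 targets, so this high share follows in part from the choice of genes. Hmga2 held 4 matches in 3014 bases, Lin28b 4 in 4445 bases, Igf2bp1 4 in 6337 bases, Trim71 4 in 5512 bases and Lin28a 2 in 2775 bases, while Igf2bp2, Igf2bp3 and Hmga1 held 1 each. The 3′ UTRs of these genes are long, and the share of 3′ UTRs of like length (from 0.8 of the gene's own length to that length over 0.8) with at least 1 match was 16.0% for Hmga2, 24.3% for Lin28b, 34.3% for Igf2bp1, 29.9% for Trim71 and 14.7% for Lin28a. As many as 4 matches were rare at any of these lengths: 0.0821% of the 3′ UTRs near Hmga2 in length and 0.360% of those near Trim71 held 4 or more. Msi1 (1895 bases) and Msi2 (5310 bases) held no let-7 match, so the letters are not in these windows. To hold none is the usual state: 12.8% of the 3′ UTRs near Msi1 in length and 28.3% of those near Msi2 held at least 1. For the genes with 1 match the share was 12.1% (Igf2bp2), 13.3% (Igf2bp3) and 8.20% (Hmga1).

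The matches of Hmga2 and those of Igf2bp1, Lin28b and Trim71 that are followed by an A are shown with the 15 bases before and 1 base after, on the minus strand of GRCm38, with the seed match in capitals. These are the 4 genes with 4 matches each, of which Hmga2 and Igf2bp1 were read in both areas, Lin28b in the cortex alone and Trim71 hardly at all.
Hmga2 site 1, chr10:120364224-120364246: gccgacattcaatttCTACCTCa
Hmga2 site 2, chr10:120362987-120363009: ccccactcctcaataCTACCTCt
Hmga2 site 3, chr10:120362549-120362571: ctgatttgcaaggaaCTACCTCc
Hmga2 site 4, chr10:120361691-120361713: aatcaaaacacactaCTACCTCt
Igf2bp1 site 1, chr11:95961778-95961800: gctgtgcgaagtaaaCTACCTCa
Igf2bp1 site 2, chr11:95959357-95959379: cagcagtgctattaaCTACCTCa
Igf2bp1 site 3, chr11:95958763-95958785: gtataaatggatgaaCTACCTCa
Lin28b site 1, chr10:45381022-45381044: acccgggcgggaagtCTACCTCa
Trim71 site 1, chr9:114512472-114512494: aacattgcctaagtcCTACCTCa
Trim71 site 2, chr9:114512376-114512398: agtgataatttctatCTACCTCa
Trim71 site 3, chr9:114509047-114509069: tttagtatggattttCTACCTCa
Trim71 site 4, chr9:114509021-114509043: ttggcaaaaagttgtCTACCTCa

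For miR-125 (CTCAGGG), found in 13.1% of all 3′ UTRs, 1 match each was present in Lin28a, Lin28b, Igf2bp3 and Trim71 and 2 in Msi1. Of like-length 3′ UTRs, a match was in 24.7% for Lin28a, 32.4% for Lin28b, 20.4% for Igf2bp3 and 37.8% for Trim71. Near Msi1 in length, 2.75% held 2 or more. For miR-9 (ACCAAAG), found in 12.2% of all, Lin28b held 4 matches, Hmga1 and Trim71 2 each, and Lin28a, Igf2bp2, Igf2bp3 and Hmga2 1 each. Of like-length 3′ UTRs, 0.147% held as many as Lin28b, 0.618% as many as Hmga1 and 9.95% as many as Trim71. For the genes with 1 match, 23.1% (Lin28a), 16.1% (Igf2bp2), 18.6% (Igf2bp3) and 25.7% (Hmga2) held at least 1. Msi2 held none of the 3 motifs although only Igf2bp1 and Trim71 had a longer 3′ UTR. Of the 3′ UTRs near it in length, 36.5% held a miR-125 match and 38.2% a miR-9 match. A match is a run of letters and was not tested as a site of binding.

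**Figure D1:**
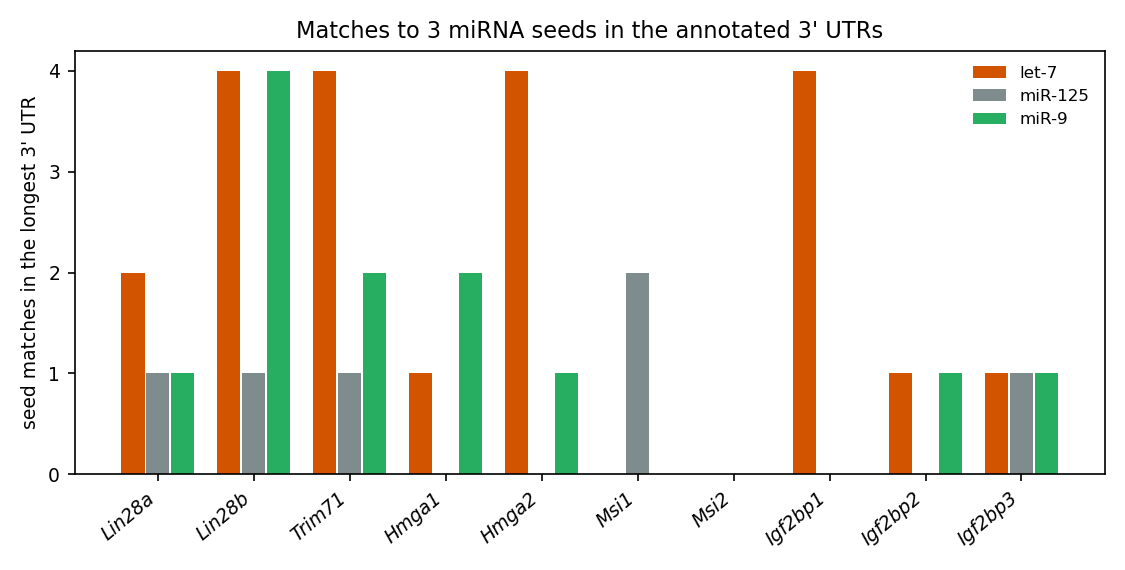
Number of matches to the let-7, miR-125 and miR-9 seeds (bars, vertical axis from 0) in the longest annotated 3′ UTR of each of the 10 genes. Lin28b, Trim71, Hmga2 and Igf2bp1 held 4 let-7 matches each, and Msi1 and Msi2 held none.

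The depth of the libraries sets what can be said about genes this low. Gene reads numbered 51435667 for the SVZ and 22050693 for the cortex. A single read was therefore worth 0.0194 and 0.0454 counts-per-million (CPM) of the gene total. Where no read was counted, that count leaves room for up to 3 reads, 0.0583 CPM for the SVZ and 0.136 CPM for the cortex. Intervals are exact 95% counting intervals. They leave out the spread between embryos, sections and dissections. Removal of PCR duplicates was not stated, so they cover the error of counting reads, not molecules, and may be too narrow. With 1 library per area no difference has a replicate check and no test between the areas was made. Progenitor markers were higher in the SVZ library and neuron markers in the cortex library. The 8 apical and 4 intermediate progenitor markers tested were each 2-fold or more higher in the SVZ library. Their median log2 ratios were 4.09 and 4.48, and that of the 6 proliferation markers was 6.06. The 9 neuron markers, each higher in the cortex library, had a median of -2.11. Whether the SVZ piece also held neighbouring layers was not tested.

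The 10 genes of the circuit differed in their direction. Hmga2 and Msi2 were over 2-fold higher in the SVZ library. The 3 Igf2bp genes were within 1.19-fold of equal CPM and were the most abundant of the 10. Lin28b was read in the cortex library alone at a low level. Lin28a and Trim71 had no more reads in either library than the 3 that a count of 0 allows. Hmga1 and Msi1 were read above that limit but stayed under 1 CPM in both. A mean CPM of 1 or more was reached by 5 of the 10 genes, which entered the counts: Igf2bp1, Igf2bp2, Igf2bp3, Hmga2 and Msi2. Called on the SVZ side, with a ratio of 2-fold or more, were 2 of these 5, and on the cortex side 0. Over all 12738 genes tested, 20.0% were called on the SVZ side and 15.6% on the cortex side, and the median log2 ratio of SVZ to cortex CPM was 0.11 with quartiles of -0.56 and 0.76. With 5 genes tested, 2 beside a background of 20.0% is no result about the set.

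**Figure D2:**
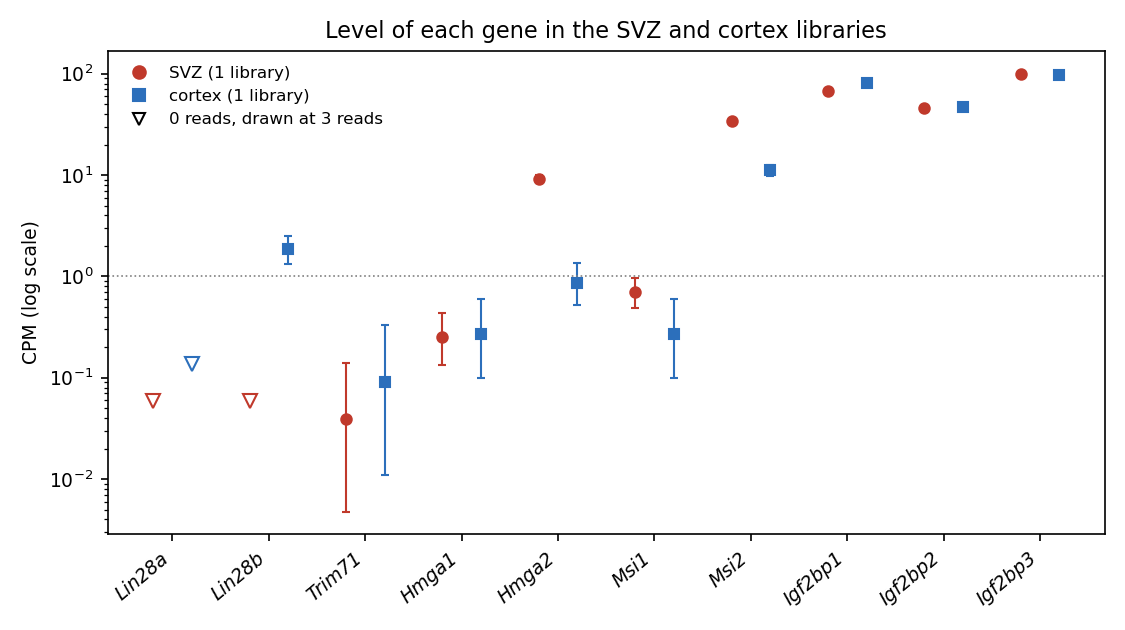
CPM of each of the 10 genes (vertical log axis) in the SVZ library (circles) and the cortex library (squares), with exact 95% Poisson counting intervals. Open triangles mark 0 reads and stand at the 3 reads a count of 0 allows, and the dotted line is 1 CPM. The Igf2bp genes lie highest and together in both libraries, and Hmga2 and Msi2 lie higher in the SVZ library.

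Among the chromatin proteins, Hmga2 (GRCm38 chromosome 10, 120361275 to 120476469, minus strand, protein coding) gave the largest SVZ excess of the 10. It had 466 reads in the SVZ library, 9.06 CPM (8.26 to 9.92), and 19 reads in the cortex library, 0.862 CPM (0.519 to 1.35). The level was thus just under 10 CPM in the germinal layer and under 1 CPM in the cortex, and the intervals were far apart. The ratio was 10.5-fold (interval 6.66 to 17.6), a log2 ratio of 3.39 (2.73 to 4.14), above 94.6% of the genes tested. Hmga2 passed the minimum of 1 CPM through its SVZ value alone. In bulk tissue, fewer cells that make a transcript and less of it in each cell cannot be told apart.

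Hmga1 (chromosome 17, 27556497 to 27563674, plus strand), the paralogue of Hmga2, was covered by 13 SVZ reads and 6 cortex reads, or 0.253 and 0.272 CPM. The interval around its log2 ratio of -0.11 ran from -1.60 to 1.58, and no difference was detectable at this depth. The Hmga1 counts are uncertain: reads that map to several places were not counted, and 64.3% of the 75-base windows of the longest Hmga1 transcript occur letter for letter in another gene of the annotation. Hmga1 was the only one of the 10 genes with any window shared with a gene elsewhere in the annotation.

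Msi2 (chromosome 11, 88339382 to 88718513, minus strand) carried nearly all Musashi reads. It had 1771 SVZ reads, 34.4 CPM (32.8 to 36.1), and 246 cortex reads, 11.2 CPM (9.81 to 12.6). The SVZ value was 3.09-fold higher, a log2 ratio of 1.63 (1.43 to 1.82), but the gene was well read in both areas. Hmga2 and Msi2 differed from each other in how strongly they leaned to the SVZ: the ratio of Hmga2 to Msi2 reads was 0.263 for the SVZ and 0.0772 for the cortex, 3.41 times higher in the SVZ library (exact interval 2.11 to 5.82), a comparison that no scaling of the libraries can change.

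Msi1 (chromosome 5, 115429599 to 115455698, plus strand), the Musashi gene most used as a stem cell marker, was barely read. It had 36 SVZ reads, 0.700 CPM (0.490 to 0.969), and 6 cortex reads, 0.272 CPM (0.0999 to 0.592). Both values stayed under 1 CPM, and the gene was not counted among those tested. The log2 ratio was 1.36, towards the SVZ like Msi2, with a wide interval of 0.10 to 2.90, or 1.07-fold to 7.47-fold. Msi1 made up 1.99% (1.40 to 2.75) of the Musashi reads of the SVZ and 2.38% (0.879 to 5.11) of those of the cortex. The ratio of Msi2 to Msi1 reads was 1.20 times as high in the SVZ library, within an interval of 0.409 to 2.91. Any difference in the mix of the paralogues was not detectable at this depth. None of the 3059 windows of 75 bases in the longest Msi1 transcript occurred in a gene elsewhere in the annotation. Genes that overlap Msi1 itself were not searched. The count columns kept per strand, in which a gene on the other strand takes no reads away, summed to the same 36 and 6 reads. Msi1 reads fell on both strands, 14 and 22 in the SVZ library, as did those of the other members read. Strand therefore does not tell reads of a member from those of a gene opposite it. The stranded sum differed from the unstranded count for 0 of the 10 members, so no counted read overlapped a counted gene on the other strand. By whole gene span, introns included, 8 of the 10 members, all but Lin28b and Igf2bp2, have an opposite gene in GENCODE M21. The authors' models may lack some of these. The GC content of that transcript was 57.9%, above 89.9% of coding genes, and its part in the low count was not tested.

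The Igf2bp genes were the most read of the circuit, and of the 5 genes tested they were the 3 closest to equal CPM. Igf2bp1 (chromosome 11, 95957163 to 96005940, minus strand) had 3501 SVZ reads, 68.1 CPM (65.8 to 70.4), and 1785 cortex reads, 80.9 CPM (77.2 to 84.8). Igf2bp2 (chromosome 16, 22059009 to 22163299, minus strand) had 2360 and 1045 reads, or 45.9 CPM (44.0 to 47.8) and 47.4 CPM (44.6 to 50.4). Igf2bp3 (chromosome 6, 49085223 to 49214957, minus strand) had 5118 and 2125 reads, or 99.5 CPM (96.8 to 102.3) and 96.4 CPM (92.3 to 100.6).

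Igf2bp1 was thus slightly higher in the cortex library, while the intervals of the other two overlapped between the areas. The log2 ratios were -0.25 (-0.33 to -0.17) for Igf2bp1, -0.05 (-0.15 to 0.06) for Igf2bp2 and 0.05 (-0.03 to 0.12) for Igf2bp3. The intervals of Igf2bp2 and Igf2bp3 take in equal CPM and end well short of 2-fold. Counting intervals this narrow do not set Igf2bp1 apart, since 86.8% of all genes tested had an interval that excluded equal CPM, and its ratio lay inside the quartiles of all genes. The ratio of Igf2bp3 took the other sign, -0.05, under trimmed mean of M values (TMM) scaling, upper-quartile scaling and DESeq2 size factors, which moved the median of all genes by -0.0930 to -0.0988. No Igf2bp gene differed by 2-fold under any scaling.

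The mix of the 3 genes, which is free of scaling, shifted a little. Igf2bp3 gave 46.6% (45.7 to 47.6) of the Igf2bp reads of the SVZ and 42.9% (41.5 to 44.3) of those of the cortex. Igf2bp1 gave 31.9% (31.0 to 32.8) and 36.0% (34.7 to 37.4), and Igf2bp2 21.5% (20.7 to 22.3) and 21.1% (20.0 to 22.3). The ratio of Igf2bp3 to Igf2bp1 reads was therefore 1.23 times (1.14 to 1.33) that of the cortex library in the SVZ library. This was beyond the error of counting reads, with no measure of the spread between embryos or of PCR copies. Set against Igf2bp3, Hmga2 was 10.2 times (6.42 to 17.1) and Msi2 2.99 times (2.59 to 3.46) higher in the SVZ library.

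**Figure D3:**
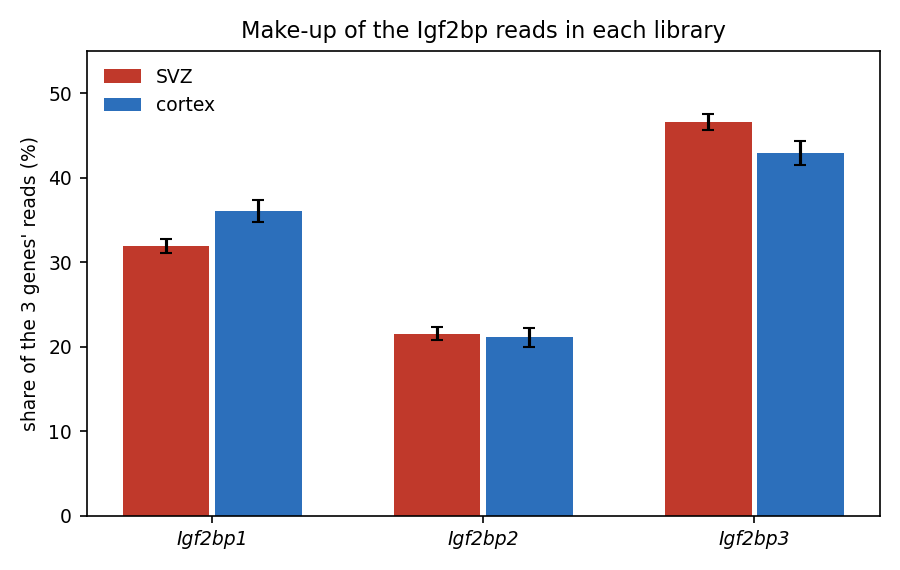
Share of the reads of Igf2bp1, Igf2bp2 and Igf2bp3 that each gene took (vertical axis in percent, from 0) in the SVZ library (10979 reads) and the cortex library (4955 reads), with exact 95% binomial intervals. Igf2bp3 took the largest share in both, and Igf2bp1 a larger share in the cortex library.

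The Lin28 genes, which stand at the head of the let-7 pathway, gave few or no reads. Lin28a (chromosome 4, 134003330 to 134018841, minus strand) had 0 reads in both libraries, and the exact intervals end at 0.0717 CPM for the SVZ and 0.167 CPM for the cortex. Lin28b (chromosome 10, 45376620 to 45486395, minus strand) had 0 SVZ reads and 41 cortex reads, 1.86 CPM (1.33 to 2.52). Set against the floor of 3 SVZ reads, with no error on the 41, its cortex value was at least 31.9-fold higher, a log2 bound of -4.99. With counting error on both counts the exact interval of the log2 ratio ended at -4.63.

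Lin28b was the only member over 2-fold higher in the cortex library, opposite to Hmga2 and Msi2. Its mean of 0.930 CPM fell just short of the minimum of 1 CPM, so it was not counted above. It entered as a cortex-side call when the 10 most counted genes of either library were left out of the totals and when no minimum was set. With the deeper SVZ library thinned to the cortex total the bound was -3.77. The 41 reads fell on both strands, 22 and 19 in the stranded columns, and no window of its longest transcript was shared with a gene elsewhere in the annotation. How many molecules these reads stand for is unknown, because copies made by PCR were not told apart.

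Trim71 (chromosome 9, 114507133 to 114564369, minus strand) had 2 reads in each library, 0.0389 CPM (0.00471 to 0.140) in the SVZ library and 0.0907 CPM (0.0110 to 0.328) in the cortex library, and no ratio was formed. Neither area gave more reads than a count of 0 allows. The Hmga2, Igf2bp1 and Lin28b transcripts, which with Trim71 held the most let-7 matches, lay on different sides: one higher in the SVZ library, one near equality and one in the cortex library alone.

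**Figure D4:**
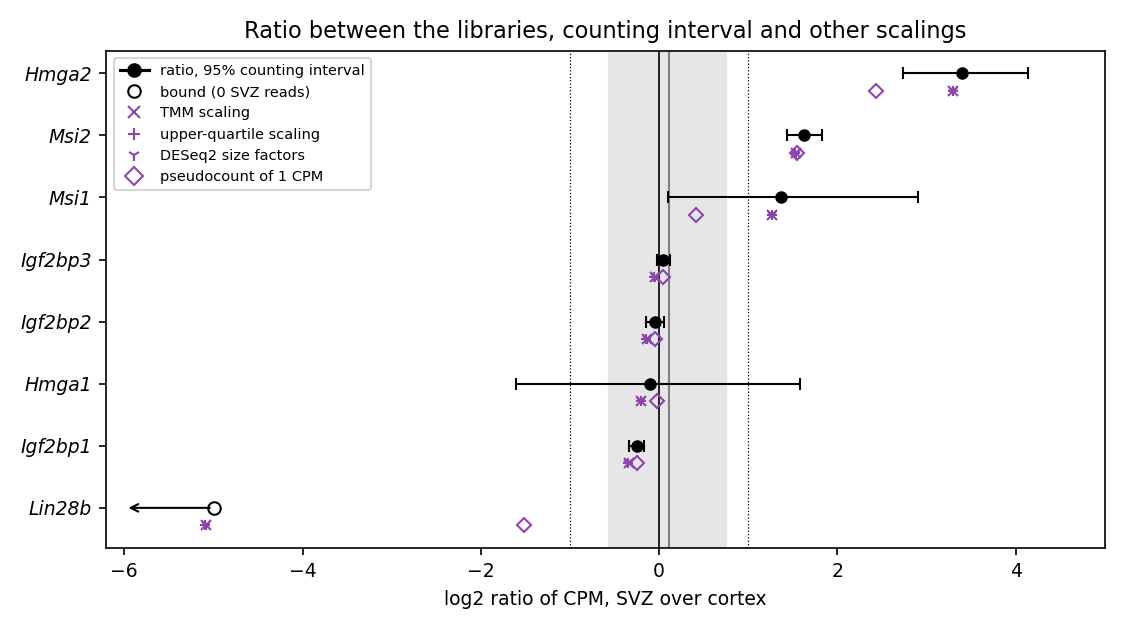
Log2 ratio of SVZ to cortex CPM for the 8 genes with a ratio or bound (horizontal axis), with the exact 95% counting interval in black and the value under other scalings or a pseudocount in purple. The grey band spans the quartiles of all 12738 genes tested, the grey line is their median and the dotted lines mark 2-fold. Hmga2 and Msi2 lie right of the band, Msi1 too but with an interval that reaches into it, the Igf2bp genes inside it, and the Lin28b bound far left, although a pseudocount of 1 CPM draws it to -1.52.

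Levels of different genes were compared per length, as CPM divided by the kilobases of annotated exon (RPKM). In the SVZ library the order was Igf2bp3 at 12.2 RPKM, Igf2bp1 at 7.03, Igf2bp2 at 6.20, Msi2 at 3.31, Hmga2 at 1.34, Msi1 at 0.121, Hmga1 at 0.119 and Trim71 at 0.00417, with both Lin28 genes at 0. The median gene with a read stood at 3.15 RPKM there, so only the Igf2bp genes and Msi2 lay above it. Msi1 and Hmga1 did not differ beyond their counting intervals (0.0845 to 0.167 and 0.0633 to 0.203 RPKM). The place of Hmga1 is uncertain in both libraries. Its full exon length was used although 64.3% of its windows are shared and reads that map to several places were not counted.

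In the cortex library the order was Igf2bp3 at 11.8 RPKM, Igf2bp1 at 8.36, Igf2bp2 at 6.40, Msi2 at 1.07, Lin28b at 0.205, Hmga1 at 0.128, Hmga2 at 0.127, Msi1 at 0.0469, Trim71 at 0.00972 and Lin28a at 0. The intervals of Lin28b, Hmga1 and Hmga2 overlapped (0.147 to 0.278, 0.0470 to 0.279 and 0.0766 to 0.199 RPKM). Hmga2 thus came next after Msi2 in the SVZ library and among the barely read genes in the cortex library, above 36.9% and 10.4% of the genes with a read, whereas Igf2bp3 stood above 74.1% and 73.6%. With the longest transcript in place of all exons as the length, Igf2bp2 (9.27 RPKM) passed Igf2bp1 (8.12 RPKM) in the SVZ library, and their order is therefore not settled.

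Genes for the proteins that make, trim and use let-7 lay within 2-fold between the areas where they were tested. Of 17 such genes 16 were tested, 4 were higher for the SVZ and 12 for the cortex, none by 2-fold, and their median log2 ratio was -0.17 beside 0.11 over all genes. On the cortex side were Drosha, the nuclease that cuts primary microRNAs (log2 ratio -0.84, -0.91 to -0.77), Ago4 (-0.86, -0.97 to -0.75), Tnrc6c, a partner of Argonaute (-0.79, -0.86 to -0.73) and Zcchc6, a uridylyl transferase that acts on let-7 precursors (-0.52, -0.62 to -0.42). On the SVZ side were Ago1 (0.79, 0.71 to 0.88), Prkra, a Dicer cofactor (0.50, 0.41 to 0.58), Tnrc6b (0.25, 0.16 to 0.34) and Zcchc11, the paralogue of Zcchc6 that LIN28A recruits to let-7 precursors (0.16, 0.08 to 0.24).

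Dicer1 itself was at 58.8 and 65.5 CPM. Trim25, a cofactor of the LIN28A and uridylyl transferase step, had 82 and 0 reads, a log2 ratio of 3.55 against the floor of 3 reads with an interval from 3.22, but its mean stayed under 1 CPM. Mature microRNAs were not measured by these libraries. The 11 table rows of let-7 hairpins held 7 SVZ reads and 12 cortex reads in all. Of 5 microRNA host transcripts listed, 2 had a row in the count table. Mir99ahg, the long host transcript of let-7c-1, miR-99a and miR-125b-2, had 6336 SVZ reads and 202 cortex reads, or 123 and 9.16 CPM, a log2 ratio of 3.75 (3.55 to 3.96). Mir124a-1hg, a host of the neuronal miR-124, had 30.5 and 57.8 CPM, a log2 ratio of -0.92 (-1.03 to -0.81).

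Genes named as let-7 targets in earlier work, the members left out, lay on both sides. All 18 were tested and 9 were higher in each library. By 2-fold or more, 5 were called on the SVZ side and 3 on the cortex side, beside 20.0% and 15.6% of all genes, which is no result about the list. The median log2 ratio was 0.02 and the mean 0.74, with Cdk6 at its bound. The SVZ side held Nr2e1, an orphan nuclear receptor of neural stem cells (6849 and 4 reads, log2 ratio 9.52, 8.16 to 11.40), Cdk6 (304 and 0 reads, a log2 ratio of 5.44 against the floor, interval from 5.13), Ccnd1 (2.22, 2.06 to 2.38) and Ccnd2 (1.95, 1.91 to 1.98), the D-type cyclins. The cortex side held Myc (-2.12, -2.24 to -2.00), its relative Mycn (-1.72, -1.78 to -1.67) and the TGF-beta receptor Tgfbr1 (-1.70, -1.75 to -1.65).

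Relatives and partners of the members were then set beside them. The HMGB and HMGN chromatin proteins, small DNA- and nucleosome-binding proteins like HMGA, were all 7 higher in the SVZ library, beside 54.9% of all genes, and 6 were called on the SVZ side, beside 20.0% of all genes. Their median log2 ratio was 1.80 and their mean 2.43. The largest were Hmgb2, known from dividing cells (595 and 9.25 CPM, log2 ratio 6.01, 5.81 to 6.21), Hmgn2 (2.79, 2.76 to 2.82), Hmgn5 (2.80, 2.63 to 2.98) and Hmgn3 (1.80, 1.74 to 1.85). The HMGB and HMGN list was chosen with earlier results of these data known, so its counts are no independent support. The relatives of Trim71 with the same NHL domain were well read, unlike Trim71. Trim2 was at 871 and 366 CPM, 2.38-fold higher in the SVZ library, whereas Trim32, known from neuronal differentiation, had -1.74 (-1.80 to -1.68) and Trim3 -1.87 (-2.06 to -1.69).

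The proteins found with IGF2BP1 on mRNAs were within 2-fold between the areas. All 4 were tested, and the log2 ratios were 0.35 (0.33 to 0.38) for Hnrnpu, -0.04 (-0.09 to 0.00) for Syncrip, -0.04 (-0.06 to -0.02) for Ybx1 and 0.00 (-0.10 to 0.10) for Dhx9. Their median was -0.02 and their mean 0.07, of opposite sign. Of the mRNAs known to be bound by IGF2BP proteins 5 of 6 were tested, and they were split. Gap43, a growth cone protein, was at 244 and 1923 CPM (log2 ratio -2.98), the imprinted RNA H19 had a log2 ratio of 1.96 from 390 SVZ reads and 43 cortex reads and Igf2 0.96 (0.40 to 1.56) from 145 and 32 reads, and Actb was near equality at -0.09 (-0.10 to -0.07).

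Among the genes tied to Hmga2 in stem cells, Cdkn2a, the Ink4a and Arf locus that Hmga2 is known to hold down in young progenitors, had 0 SVZ reads and 1 cortex read, and Cdkn2b 13 and 6 reads. Neither area gave a readable level of this pair. Junb had 6 SVZ reads and 60 cortex reads (log2 ratio -4.54, -6.05 to -3.34), and Bmi1, a Polycomb protein, 78.1 and 94.4 CPM (-0.27, -0.35 to -0.20). Of the mRNAs named as Musashi targets 3 of 4 were tested and none was 2-fold apart. Numb, an inhibitor of Notch, had a log2 ratio of 0.81 (0.49 to 1.14), the cell cycle inhibitor Cdkn1a 0.47 (0.22 to 0.72) and Dcx, a microtubule protein of young neurons, -0.86 (-0.88 to -0.84). Robo3 was at 0 reads in both libraries.

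The pluripotency genes that share early embryos with Lin28a and Trim71 were likewise low. None of 8 reached a mean of 1 CPM, and Utf1, Zfp42 and Tdgf1 were at 0 reads in both libraries. Of the others, Pou5f1 had 95 and 0 reads, a log2 ratio of 3.76 against the floor with an interval from 3.44, and Sall4 75 and 3 reads (log2 ratio 3.42, 1.82 to 5.73). Nanog had 49 and 17 reads, a log2 ratio of 0.31 (-0.52 to 1.19).

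**Figure D5:**
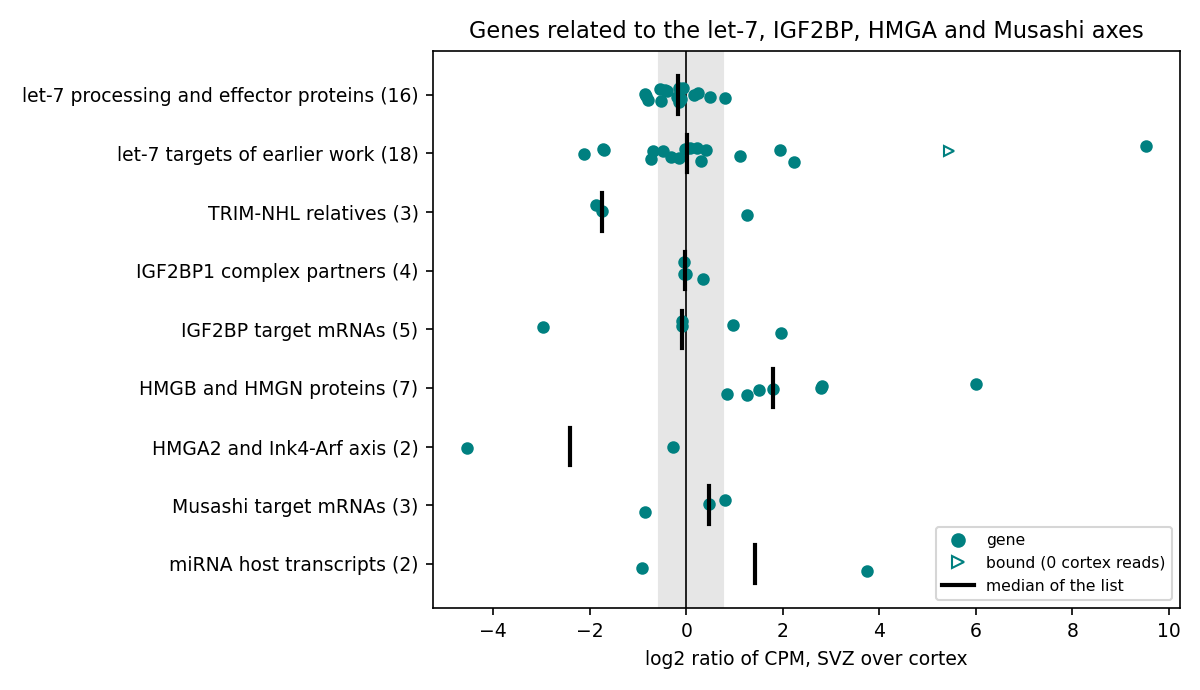
Log2 ratio of SVZ to cortex CPM (horizontal axis) for each related gene with a mean of at least 1 CPM, 1 row per list with the number of genes in brackets. Black bars are medians, the open triangle is a bound set by 0 cortex reads, and the grey band spans the quartiles of all genes tested. The HMGB and HMGN genes lie on the SVZ side, the let-7 processing genes between -0.86 and 0.79, the IGF2BP1 partner genes near 0, and the let-7 targets spread to both sides.

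Markers of other cell types also differed between the libraries, and their part in the member ratios was not tested. All 6 microglial markers were over 2-fold higher in the SVZ library, where they summed to 50.3 CPM beside 5.53 CPM in the cortex library. The 5 choroid plexus markers summed to 245 and 0.907 CPM, nearly all of it Ttr, with Kl at 0 in both and Folr1 and Clic6 at 0 in the cortex library. The 8 blood vessel markers summed to 145 and 111 CPM, with 5 higher for the SVZ and 3 for the cortex, the latter including Flt1 with a log2 ratio of -1.26. The 7 meningeal markers summed to 4.59 and 9.39 CPM, with Col1a1 at 0 in the SVZ library and Foxd1 at 0 in both. Of the 8 erythroid markers, which summed to 20.5 and 10.9 CPM, Hba-a1, Hba-a2, Hbb-bs and Hbb-bt were listed at 0 in both and Hbb-bh1 at 0 in the cortex library.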

How the data were processed

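RNA from laser-captured SVZ and cortex pieces (1 library each) was made into libraries with a low-input kit by the authors and sequenced. The deposited files give counts of whole reads: per the study's methods and the submitters' processing notes, the authors trimmed adapters with cutadapt 4.1, mapped read 1 to mm10 (GRCm38) with STAR 2.7.9a and counted with STAR, which leaves out reads that map to several places or to more than 1 gene. The summary lines (unmapped, multimapping, no feature, ambiguous) did not enter the totals, which hold 59.0% of all SVZ reads and 59.1% of all those of the cortex. The deposited merged table, with normalized values and the authors' fold changes, was not used here.

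CPM used the total of gene reads and the unstranded column. Log2 ratios carry exact 95% Clopper-Pearson intervals of the SVZ share of a gene's reads, and levels carry exact Poisson intervals. A count of 0 was set at 3 reads and called a bound, and no ratio was formed with both counts at or under 3. The call was a ratio of 2-fold or more where the mean over the pair of libraries was 1 CPM or above. With 1 library per area no test was run. Ratios between genes carry conditional odds ratio intervals. All members were named, and of each list up to 4 genes per direction by the interval end nearer 0, beside some genes named after their values were seen (Dicer1, Trim25, Pou5f1, Sall4, Nanog). The members and lists were chosen with earlier results of these data known. Gene models and 3′ UTRs were those of GENCODE M21 on GRCm38, matched by symbol (10 of 10 members), and may differ from the models the authors counted on. miR-124 matches and protein sequences were not analysed here, and some genes that the rule names are not reported here. Alternatives were DESeq2 1.42.0 size factors, edgeR 4.0.16 upper-quartile and TMM factors, totals leaving out the 10 genes with most reads, the stranded sum, a thinned SVZ library, a pseudocount of 1 CPM, other minimums and folds, list means, and other transcript lengths and 3′ UTRs. Python 3.11.15, numpy 2.4.6, scipy 1.17.1, matplotlib 3.10.9 and R 4.3.3 were used, and the procedures were tested on simulated data.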

Additional observations from a re-analysis of the deposited data

How the results depend on the processing

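No paired analysis was possible because only 1 library was made per area. No replicate could be left out either. No ratio called at 2-fold changed its sign under the alternatives run. The number of members called on the SVZ side, 2 (Hmga2 and Msi2), was the same under every scaling, the stranded sum, thinning, the pseudocount and the whole-interval rule. It was 1 with a minimum of 10 CPM (Msi2) and 1 at 4-fold (Hmga2), and 3 with no filter, where Msi1 joined. The number called on the cortex side, 0, became 1 (Lin28b) with totals without the 10 most counted genes and 1 with no filter on low values. Over all genes the counts of 2547 and 1992 became 1341 and 1113 with the minimum of 10 CPM, and 1300 and 893 at 4-fold, since these rules test or admit fewer genes.

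Of 56 member ratios recomputed, 47 stayed inside the counting interval of the reported value. Hmga2 ranged from 2.43 (pseudocount) to 3.39 and Msi2 from 1.53 to 1.65. The Lin28b bound ranged from -5.09 to -1.52, and depth limits it, as it does Lin28a, Trim71 and Msi1. Hmga1 had few reads too, and its counts leave out any read that also maps to another place. Of the list medians, that of the IGF2BP target mRNAs became 0.44 with no filter and that of the Musashi target mRNAs -0.86 at 10 CPM, which left Dcx alone. Counting seed matches over all annotated 3′ UTRs changed none of the 30 counts.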

Other observations

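The let-7 matches were also counted over all genes tested, a question added after the values were seen, with the 10 members left out. The 10499 genes with no let-7 seed match in the longest 3′ UTR had a median log2 ratio of 0.12, the 1105 genes with 1 match -0.05 and the 151 genes with at least 2 matches 0.07. By 2-fold or more, 19.9%, 17.0% and 18.5% of them were higher in the SVZ library and 15.2%, 18.3% and 17.9% in the cortex library. The groups differ in 3′ UTR length, with medians of 1161, 2327 and 3804 bases. Of the 18 genes with at least 3 matches, 2 were called on the SVZ side and 4 on the cortex side, with a median log2 ratio of 0.10. Their median 3′ UTR length was 5367.5 bases, and a longer 3′ UTR has more room for a match. The SVZ-side genes were Fign, which encodes fidgetin (9.99 and 0.0907 CPM from 514 and 2 reads, log2 ratio 6.78, 4.92 to 9.83), and Nr6a1, an orphan nuclear receptor with 8 matches (5.05 and 2.31 CPM, log2 ratio 1.13, 0.69 to 1.59). The cortex-side genes were Trim67, a TRIM ligase (18.0 and 264 CPM, log2 ratio -3.87, -3.97 to -3.77), D1Ertd622e (-1.64, -1.72 to -1.56), Mcf2l, with 7 matches (-1.57, -1.69 to -1.46), and Hic2 (-1.11, -1.32 to -0.90). The 3 matches of D1Ertd622e lay in an annotated 3′ UTR of 39397 bases, beside 4457 bases for Nr6a1. These were named after their values were seen and lay on both sides, as the members with 4 matches did.

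Msi1 is a gene to look at again. At 0.700 CPM it had 36 reads beside 1771 of Msi2 in an SVZ library in which each of the 8 apical progenitor markers tested was 2-fold or more above the cortex library. The 41 Lin28b reads in the cortex library, with 0 in the deeper SVZ library, rest on 1 library and on an unknown number of molecules.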
